A study of Mus musculus with 12 samples.

Results

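The comparison described here is the effect of the Dicer1 conditional knock-out (cKO) averaged over the corpus and the cauda of the mouse epididymis, as 1 genotype effect with the region as a covariate. All 12 arrays of the series enter it: 6 cKO arrays and 6 Control arrays, with 3 of each from the corpus and 3 of each from the cauda. The cKO mice were Defb41iCre/wt;Dicer1fl/fl and the Control mice were Dicer1fl/fl, so that floxed Dicer1 alleles were shared by all animals and the iCre allele was present in the cKO only. Both genotypes had a mixed background of C57Bl/6N and SV129, and no age is given in the labels. The Defb41 promoter drives Cre in the principal cells of the most proximal epididymis (initial segment and caput), upstream of the regions measured. The left and right tissue of a region was pooled for each mouse, and 3 mice of each genotype supplied both regions. The labels do not say which corpus and cauda arrays share a mouse, so the 6 arrays of a genotype are not 6 independent animals and the p-values below can be too small. Each of 22180 genes was represented by its brightest probe-set, and a value is a log2 intensity after robust multi-array averaging (RMA) unless it is called a difference. A difference is cKO minus Control on the log2 scale.

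Dicer1 is the endoribonuclease that cuts hairpin precursors into mature microRNAs, which in turn repress the mRNAs they pair with. The epididymis is a single long tubule in which sperm from the testis acquire motility, pass from the caput through the corpus and are stored in the cauda. Its epithelium holds secretory principal cells, acid-secreting clear and narrow cells and basal cells, surrounded by smooth muscle, fibroblasts, vessels and macrophages. Whole tissue was measured, so fewer cells of a type and less RNA per cell cannot be told apart, and sperm in the lumen carry transcripts of germ cell genes.

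To show what Dicer1 acts on, the hairpins of a pair of microRNA genes with a probe-set here, Mir205 and Mir200c, are given with their mature arms in capitals (RefSeq, GRCm38.p6, chr1:193507463-193507530 and chr6:124718322-124718390, both on the minus strand).
Mir205: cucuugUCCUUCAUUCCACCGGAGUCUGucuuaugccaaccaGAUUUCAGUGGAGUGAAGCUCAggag
Mir200c: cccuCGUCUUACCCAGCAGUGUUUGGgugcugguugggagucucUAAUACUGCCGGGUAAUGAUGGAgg
Their probe-sets report the transcript of the locus and not the mature microRNA. Mir205 averaged 5.15 in cKO arrays and 4.87 in Control arrays, a difference of 0.27 (standard error 0.24, adjusted p = 0.87, limma). Mir200c averaged 4.78 in cKO arrays and 4.60 in Control arrays, a difference of 0.18 (standard error 0.15, adjusted p = 0.87, limma). Of 18 measured microRNA loci that the study names, 0 passed an unadjusted p under 0.05 in either direction, and their median difference was -0.01. Over all genes that threshold was passed by 4.33% upward and 4.29% downward, so few of 18 loci would pass in any case. Mean levels of 12 of the 18 were under 5.23, the median over all values. The count of 0 therefore does not show that these loci were unchanged.

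Dicer1 itself averaged 7.64 in cKO arrays and 7.53 in Control arrays. Its difference was 0.11 (standard error 0.08, adjusted p = 0.843, limma), made of 0.05 (corpus) and 0.17 (cauda). Since Cre acts upstream of both regions, this value checks no label. Defb41 was not analysed here. Of the 13 measured genes of microRNA processing, 0 passed an unadjusted p under 0.05 averaged over the regions, with a median difference of 0.03. Secretory genes of the duct were also read. Of 27 measured genes secreted in corpus and cauda, 24 had a mean above the median of all values, 5.23. Means under 5.23 were found for 0 of 34 measured secretory genes of the more proximal regions, and for 8246 of all 22180 genes. The count of 24 therefore cannot tell corpus or cauda from a more proximal region, and it checks no region label.

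No probe-set passed the adjusted threshold. Of 41345 probe-sets, 0 were higher and 0 were lower in cKO arrays at an adjusted p under 0.05, a percentage called of 0 in each direction, and the smallest adjusted p was 0.117. Without adjustment, 1469 probe-sets were higher and 1573 lower with p under 0.05, 7.36% of all, where 5% would pass in the absence of any effect. With each array centred on its median these counts were 1892 and 1170, so that the higher share was 61.8% in place of 48.3%. Counted as genes, 960 were higher (4.33% of genes) and 951 were lower (4.29%). Of these, 19 higher genes (0.0857%) and 111 lower genes (0.5%) differed by over 2-fold. With each probe-set's own variance, the counts at the adjusted threshold were again 0 and 0, and 1 probe-set passed when only 1 probe-set per gene was tested. The median standard error of a difference was 0.125, and the median difference over all genes was -0.003. Beside these tests the text gives a two-sided exact permutation test of single genes, with genotype permuted within each region over 400 arrangements. Its smallest possible p is 0.005, which any gene takes whose genotypes are apart in both regions with cKO on the same side. It then restates that separation and is no separate evidence. With 3 mice against 3 taken as the units no p below 0.1 could be reached.

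The arrays were not equally alike. On the first component of the values adjusted for region, which held 18.5% of the variance, corpus cKO 1 and 2 lay at 55.6 and 51.8, and corpus cKO 3 lay at -39.1 beside the corpus Control arrays, between -38.3 and -12.3. On the second component, with 15%, cauda Control 3 lay at 63.9. Without corpus cKO 3, 1 probe-set was higher (AY761185) and 1 was lower at an adjusted p under 0.05. The lower one was Flacc1, with a difference of -1.40 (standard error 0.16, adjusted p = 0.0408, limma). Leaving out any other single array gave 0 in both directions.

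The averaged effect was asked which genes differed the same way in both regions. In a fit of the 4 group means, 119 genes had an unadjusted p under 0.05 in each region, of which 89 had the same direction and 30 (0.135%) opposite directions. Of the 89, 39 were higher in cKO (0.176% of genes) and 50 were lower (0.225%). The count of 89 was 46 without corpus Control 2, 136 without corpus cKO 3 and 172 without corpus cKO 1, and the count of 30 was 68 without corpus cKO 3 and 20 without cauda cKO 3. Arrays of the 2 genotypes did not overlap in either region, with cKO on the same side, for 123 genes that were higher (0.555%) and 96 that were lower (0.433%), and for 109 genes (0.491%) they were apart in opposite directions. Over all genes, 11665 of 22180 (52.6%) had the same sign in both regions. Most genes with an averaged unadjusted p under 0.05 passed in 1 region only: 861 in the corpus, 555 in the cauda, 406 in neither and 89 in both. Passing in 1 region only is not itself a difference between the regions. Of these genes, 404 had an unadjusted p under 0.05 for the region difference (limma). Opposite signs in the 2 regions were found for 36 of them. The plot of the region effects sets the genes that passed in both regions beside all others.

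**Figure D1:**
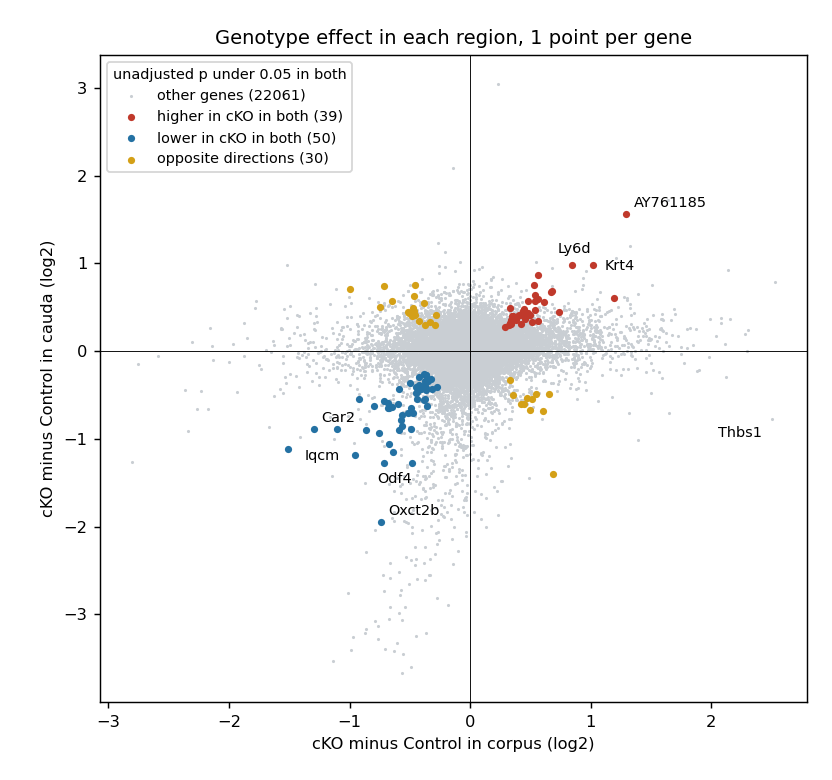
Difference between cKO and Control (log2) in the corpus on the horizontal axis and in the cauda on the vertical axis, 1 point per gene, coloured where the unadjusted p is under 0.05 in both regions. The 39 genes higher in both and the 50 lower in both lie in opposite corners, and the 30 of opposite direction in the other corners.

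AY761185, a gene of the defensin cluster of chromosome 8, stood first. It read 13.36, 13.42 and 12.51 in corpus cKO arrays, against 12.08, 11.71 and 11.61 in corpus Control arrays. In the cauda it read 11.39, 11.16 and 11.12 in cKO arrays, against 9.68, 9.33 and 9.98 in Control arrays. All cKO arrays lay above all Control arrays of the same region, and corpus levels lay above cauda levels in both genotypes. The averaged difference was 1.43 (95% interval 1.05 to 1.81, standard error 0.17), a fold of 2.69, with an unadjusted p of 2.84e-06 and an adjusted p of 0.117 (limma). Corpus and cauda gave 1.30 and 1.56, and the difference between them was -0.27 (adjusted p = 0.939, limma). The exact permutation p was 0.005, the smallest it can give, which restates that the arrays did not overlap in either region. The adjusted p was 0.00552 without corpus cKO 3 and 0.0285 when only 1 probe-set per gene was tested, and over all alternatives it ran between 0.00484 and 0.566.

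Defa21 and several other neighbours of AY761185 are alpha-defensins. The alpha-defensins, short antimicrobial peptides, form a family of closely similar genes, so that the probes of AY761185 could read more than 1 copy. To show how alike the neighbours are, the RefSeq promoter windows (GRCm38.p6, 300 bases around the start) of AY761185 (chr8:20944699-20944998, minus strand) and of Defa21, the next gene in RefSeq order (chr8:21025295-21025594, plus strand), are printed with every run of at least 12 bases found in both in capitals.
AY761185: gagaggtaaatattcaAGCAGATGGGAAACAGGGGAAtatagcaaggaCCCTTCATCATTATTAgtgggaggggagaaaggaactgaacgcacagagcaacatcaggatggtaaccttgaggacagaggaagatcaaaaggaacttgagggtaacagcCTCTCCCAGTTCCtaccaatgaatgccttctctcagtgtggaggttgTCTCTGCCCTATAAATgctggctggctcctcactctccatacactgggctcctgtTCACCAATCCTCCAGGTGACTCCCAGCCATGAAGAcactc
Defa21: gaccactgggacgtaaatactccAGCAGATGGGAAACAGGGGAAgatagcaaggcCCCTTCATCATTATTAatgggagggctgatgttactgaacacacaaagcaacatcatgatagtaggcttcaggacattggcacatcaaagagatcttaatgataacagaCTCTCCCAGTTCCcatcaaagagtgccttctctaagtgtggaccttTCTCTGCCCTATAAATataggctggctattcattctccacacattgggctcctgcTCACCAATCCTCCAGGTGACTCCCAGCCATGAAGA
The capitals make up 101 of the 300 bases, in 5 stretches, the longest of 35 bases. The window with the most words of 12 bases in common with AY761185 was that of Defa28, with 56 of 289, which was not analysed here, and Defa21 and Defa22 each shared 46. Defa21 averaged 5.32 in cKO arrays and 4.89 in Control arrays, a difference of 0.42 (corpus 0.51, cauda 0.34), and Defa22 had a difference of 0.17.

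Among the 25 RefSeq genes on each side of AY761185, 11 were measured, of which 4 were higher and 1 was lower at an unadjusted p under 0.05, where 4.33% of all genes were higher and 4.29% lower. The lower one was Gm15056, with Defb52, a beta-defensin name, as its RefSeq synonym, 2 places away. It read 8.24, 8.16 and 7.75 in corpus cKO arrays against 9.41, 8.96 and 8.36 in corpus Control arrays, and 6.65, 5.94 and 5.85 in cauda cKO arrays against 7.0, 7.48 and 6.65 in cauda Control arrays. The difference was -0.88 (standard error 0.21), with -0.86 (corpus) and -0.90 (cauda). Adjacent genes of this cluster thus had differences of both signs, with Gm6040 at 0.52 between Gm15056 and AY761185.

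Krt4, a keratin of stratified epithelia, came next among named genes. It read 5.44, 5.54 and 5.64 in corpus cKO arrays against 4.40, 4.38 and 4.77 in corpus Control arrays. In the cauda it read 6.87, 6.57 and 7.70 in cKO arrays against 5.85, 6.04 and 6.30 in Control arrays. The groups did not overlap in either region, and the differences of 1.02 (corpus) and 0.99 (cauda) were nearly the same size. The average was 1.00 (standard error 0.17, adjusted p = 0.524, limma). The exact permutation p of 0.005, the smallest possible, restates the lack of overlap. Between AY761185 and Krt4 in the order of p stood 3 probe-sets with no gene symbol.

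Ly6d, a lipid-anchored surface protein of the Ly6 family, known from keratinocytes and lymphocyte precursors, had a like pattern. Its levels were 7.15, 7.12 and 7.01 in corpus cKO arrays against 6.35, 6.01 and 6.38 in corpus Control arrays, and 7.26, 7.18 and 7.97 in cauda cKO arrays against 6.68, 6.84 and 5.95 in cauda Control arrays. No array overlapped within a region. The difference was 0.91 (standard error 0.17, adjusted p = 0.587, limma), with 0.84 (corpus) and 0.98 (cauda).

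The other genes that the rule named as higher were Itpripl1 (0.60), Rnaseh2b (0.41), Hells (0.86), Zfp521 (0.45), Zfp90 (0.41), Rgs2 (0.36), Gm4841 (0.90), Ghsr (0.34) and Cfap53 (0.69), with the averaged difference in brackets. None passed the adjusted threshold, and their adjusted p lay at 0.524 for Itpripl1 and 0.587 for the others (limma). Itpripl1 read 8.37, 8.38 and 8.34 in corpus cKO arrays against 7.63, 7.48 and 7.77 in corpus Control arrays, and 9.18, 9.18 and 9.01 in cauda cKO arrays against 8.98, 8.51 and 8.53 in cauda Control arrays. The genotypes were apart in both regions. Rgs2, which ends signalling through Gq proteins, averaged 10.01 in cKO arrays and 9.65 in Control arrays, and its further probe-set gave a difference of 0.09. Zfp90, a zinc finger repressor, also had a further probe-set, at 0.06. Rnaseh2b is a subunit of the RNase that removes ribonucleotides from DNA, and Ghsr is the receptor of ghrelin.

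Hells, a chromatin remodeller of dividing cells, was less even. It read 7.17, 6.93 and 6.64 in corpus cKO arrays against 5.58, 5.75 and 5.73 in corpus Control arrays, and 6.20, 5.89 and 5.21 in cauda cKO arrays against 5.40, 5.19 and 5.21 in cauda Control arrays. The cauda groups overlapped, at cauda cKO 3. The difference was 1.23 (corpus) and 0.50 (cauda), and the difference between the regions had an unadjusted p of 0.0451 (limma).

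**Figure D2:**
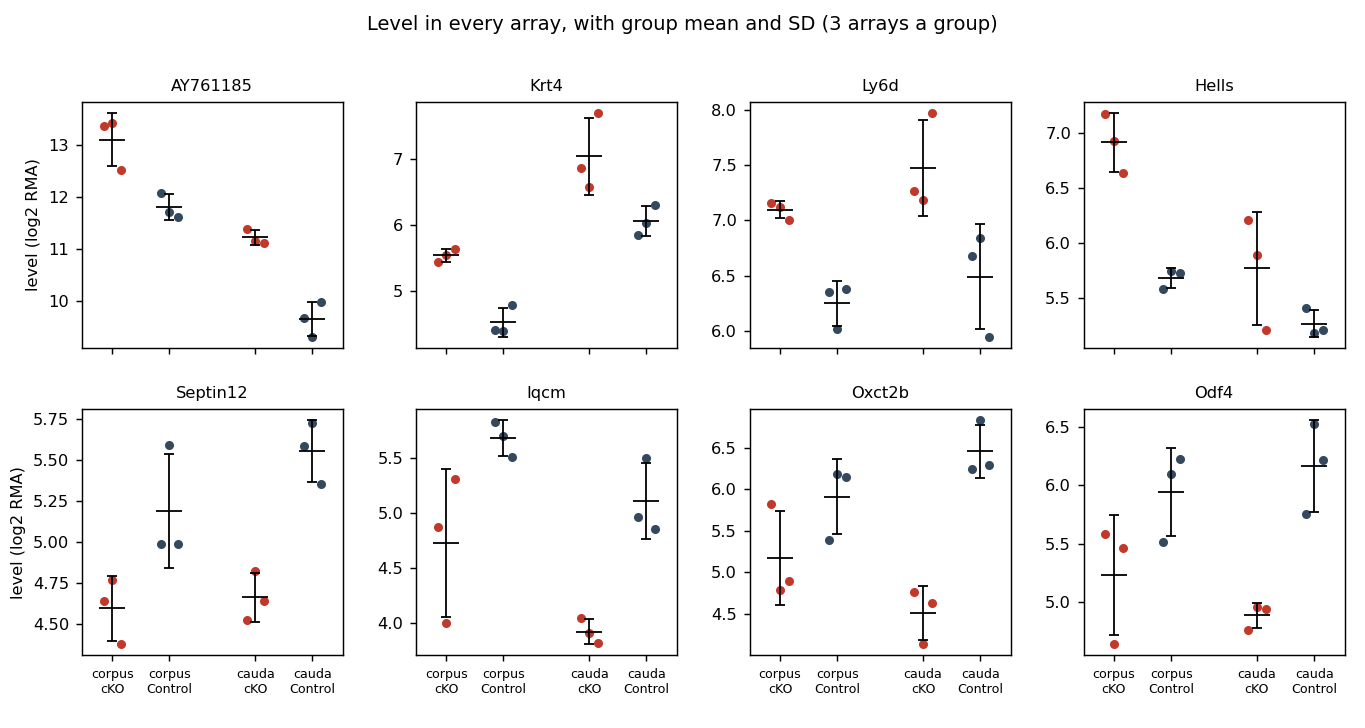
Level (log2 RMA) of 8 genes in every array, with cKO in red to the left of Control in grey for the corpus and then the cauda, and the mean with its SD over 3 arrays as a black bar. AY761185, Krt4 and Ly6d lie higher in cKO without overlap in both regions, Hells overlaps in the cauda, and Septin12 and Iqcm lie lower without overlap.

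Of the 12 genes named as lower, Septin12, Odf4 and Oxct2b are known from sperm. Septin12, a septin of the sperm annulus, read 4.64, 4.77 and 4.38 in corpus cKO arrays against 4.99, 5.59 and 4.99 in corpus Control arrays, and 4.53, 4.82 and 4.64 in cauda cKO arrays against 5.58, 5.73 and 5.35 in cauda Control arrays. The genotypes did not overlap. The difference was -0.74 (standard error 0.14, adjusted p = 0.524, limma), with -0.59 (corpus) and -0.89 (cauda). Its cKO mean of 4.63 lay below the median of all values and its Control mean of 5.37 above it.

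Odf4, a protein of the outer dense fibres of the sperm tail, read 5.59, 4.64 and 5.47 in corpus cKO arrays against 5.52, 6.09 and 6.23 in corpus Control arrays, where cKO 1 overlapped the Controls. In the cauda the groups were apart, at 4.76, 4.96 and 4.94 in cKO arrays against 5.75, 6.53 and 6.22 in Control arrays. The averaged difference was -0.996 (standard error 0.21, adjusted p = 0.587, limma).

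Oxct2b, the sperm form of a ketone body enzyme, has a close copy, Oxct2a, whose transcript its probes could share. The probe-set of Oxct2a had a difference of 0.08, made of -0.52 (corpus) and 0.68 (cauda). Oxct2b read 5.83, 4.79 and 4.90 in corpus cKO arrays against 5.39, 6.19 and 6.15 in corpus Control arrays, and 4.76, 4.14 and 4.64 in cauda cKO arrays against 6.25, 6.83 and 6.29 in cauda Control arrays. The corpus groups overlapped and the cauda groups did not. The difference was -1.34 (standard error 0.27, adjusted p = 0.587, limma), made of -0.74 (corpus) and -1.94 (cauda). A further probe-set of Oxct2b gave -0.20, and the mean of both gave -0.77. Iqcm (an IQ motif gene) read 4.88, 4.00 and 5.31 in corpus cKO arrays against 5.83, 5.70 and 5.51 in corpus Control arrays, and 4.04, 3.92 and 3.82 in cauda cKO arrays against 4.97, 5.50 and 4.86 in cauda Control arrays. It was apart in both regions, with a difference of -1.07, and a further probe-set gave -0.09, so that the mean of both was -0.58.

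The remaining named genes were Fam178b (-0.45), Xrra1 (-0.71), 1700009J07Rik (-0.88), Tex33 (-0.71), Rnf32 (-0.64), Napsa (-0.86), Ccdc54 (-0.83) and 4931403G20Rik (-0.49), all with an adjusted p of 0.587 (limma). Napsa, an aspartic protease, averaged 8.14 in cKO arrays and 9.00 in Control arrays. Its differences were -0.67 and -1.05 in corpus and cauda, and corpus cKO 3 overlapped the Controls. Fam178b and Xrra1 were near the same size in both regions, with -0.44 and -0.47 for Fam178b and -0.80 and -0.63 for Xrra1 in the corpus and the cauda.

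The 39 genes higher in both regions include all genes named as higher above but Hells. Their averaged differences lay between 0.28 and 1.43 with a median of 0.45. These values describe genes picked by the same contrast. They held several genes of immune cells: Cd4, the co-receptor of helper T cells (0.68), Klrk1, an activating receptor of natural killer cells (0.59), Lst1 (0.58), the lectins Clec4b1 (0.64) and Cd209c (0.38, with -0.13 from a further probe-set), Ltb4r1, the receptor of leukotriene B4 (0.46), and Ciita, the master activator of MHC class II genes (0.45). They also held the immunoglobulin segment Iglv1 (0.72), the ErbB ligand Nrg1 (0.52), the basal cell integrin Itga6 (0.46) and genes of DNA replication and division, Pole2 (0.46) and Cdc25b (0.31). Of the 39, 25 were apart in both regions, and 32 had a cKO mean above the median of all values. These examples were chosen after their values were seen.

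The 50 genes lower in both regions had a median averaged difference of -0.59, and 26 of them had a Control mean above the median of all values, so 24 lay low in both genotypes. Among them were Catspere2, a part of the sperm calcium channel (-0.46), Lrrc52, a partner of the sperm potassium channel (-0.43), Adad1, an RNA-binding protein of the testis (-0.74), Tsnaxip1 (-0.67), Kif17, a kinesin (-0.65), Pld6, an enzyme of piRNA production (-0.32), and 8 genes known only by RIKEN names. The largest of those was 1700019A02Rik, at 3.59, 3.57 and 3.25 in corpus cKO arrays against 4.43, 6.03 and 4.49 in corpus Control arrays, and at 3.39, 3.30 and 3.08 in cauda cKO arrays against 4.14, 4.78 and 4.20 in cauda Control arrays. Its genotypes were apart in both regions, with a difference of -1.31. Car2, the carbonic anhydrase of clear cells, was also among the 50. Of the 50, 2 were on the lists of haploid germ cell or piRNA pathway genes, which held 58 and 17 measured genes. The share of RIKEN names over all genes was not counted. All examples here were chosen after seeing their values.

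The gene lists were then read beside all genes, of which 960 of 22180 were higher and 951 lower, with a median of -0.003. Interferon-stimulated genes, the antiviral set switched on by interferons, had 30 of 45 members higher and 0 lower at an unadjusted p under 0.05, with 0 at an adjusted p under 0.05. Of the 45, 32 had the higher sign in both regions and 13 had opposite signs. The median of the list was 0.61, but it came from 1.16 (corpus) and 0.06 (cauda), where 0 members had an unadjusted p under 0.05, against 38 in the corpus. Over all genes that threshold was passed upward by 5.49% (corpus) and 1.45% (cauda), and downward by 4.8% and 3.77%. Igtp, an interferon-induced GTPase, read 7.94, 8.14 and 6.65 in corpus cKO arrays against 6.25, 6.25 and 6.20 in corpus Control arrays, and 7.24, 6.90 and 7.0 in cauda cKO arrays against 7.03, 6.61 and 6.66 in cauda Control arrays. In the corpus, cKO 1 and 2 stood well above cKO 3, and in the cauda the genotypes overlapped. The mean level of the list was between 6.94 and 7.96 in corpus cKO arrays and between 6.30 and 6.55 in corpus Control arrays, and between 6.5 and 6.84 in cauda cKO arrays and between 6.42 and 6.74 in cauda Control arrays.

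The promoter window of Igtp (RefSeq, GRCm38.p6, chr11:58199306-58199605, plus strand) is printed with its match to the interferon response motif GAAANNGAA in capitals.
Igtp: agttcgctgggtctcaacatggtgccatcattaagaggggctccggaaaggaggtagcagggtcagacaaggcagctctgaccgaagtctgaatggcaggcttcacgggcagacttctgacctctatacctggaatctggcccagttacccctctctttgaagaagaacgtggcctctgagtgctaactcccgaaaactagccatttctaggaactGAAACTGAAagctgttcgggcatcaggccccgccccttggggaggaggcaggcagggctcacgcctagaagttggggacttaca
The motif, searched on both strands, was present in the windows of 20 of 33 interferon-stimulated genes with a window (60.6%), against 9.28% of 16990 measured genes with one and 8.56% of all windows. It was found in 4 of 26 genes higher in both regions (15.4%) and in 2 of 36 lower in both (5.56%). Of the other motifs, TGANTCA (AP-1) was in 2 of 26 and 3 of 36, TGACGTCA (cAMP response) in 1 and 2, and CCAAT in 14 and 13, against 8.42%, 2.65% and 41.6% of measured genes. The androgen response element was in 0 of both sets and in 0.0294% of measured genes. A match is a stretch of letters and not a site in use.

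Antigen presentation genes had 8 of 16 higher and 0 lower, with a median of 0.32 (0.46 corpus, 0.14 cauda), and 15 of 16 had the same sign in both regions. Ciita was the member with the smallest p. It read 7.37, 7.09 and 6.90 in corpus cKO arrays against 6.62, 6.54 and 6.89 in corpus Control arrays, and 7.18, 6.98 and 7.15 in cauda cKO arrays against 6.91, 6.46 and 6.55 in cauda Control arrays. The genotypes were apart in both regions, with nearly equal differences of 0.43 and 0.46. Tap2, a subunit of the peptide transporter, had 0.40 (corpus 0.43, cauda 0.38, adjusted p = 0.62, limma). H2-Aa, a class II chain, had 0.33 and Psmb10, a subunit of the immunoproteasome, 0.49.

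Proliferation genes had 17 of 31 higher and 0 lower, with a median of 0.51 (corpus 0.97, cauda 0.11). Of the 31, 23 had the higher sign in both regions and 8 had opposite signs. The replication helicase subunit Mcm5 averaged 6.95 in cKO arrays and 6.16 in Control arrays, with 1.13 (corpus) and 0.44 (cauda). Ccnd1, cyclin D1, had 1.06 and 0.22, and Ube2c, which marks mitotic proteins for destruction, had 1.28 and 0.62. Injury and wound matrix genes had 8 of 22 higher and 0 lower on the average, with a median of 0.37 (corpus 0.63, cauda 0.01). Of the 22, 10 had the higher sign in both regions and 12 had opposite signs. In the cauda 2 were lower and 0 higher at an unadjusted p under 0.05. In this list, Sox9 had 0.82 (corpus) and 0.49 (cauda), and Cd44, a hyaluronan receptor, 1.21 and 0.31, with an average of 0.76 that was 0.50 without corpus cKO 1. In both lists the corpus effect was the larger at the median, and of the named members the unadjusted p of the region difference ran between 0.00452 for Ccnd1 and 0.416 for Sox9 (limma). No probe-set of the array had a region difference with an adjusted p under 0.05.

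Markers of other cell types were read the same way, and 0 of them passed an adjusted p under 0.05. Fibroblast and collagen genes had 12 of 20 higher and 0 lower, with 18 of 20 of the same sign in both regions and a median of 0.43 (corpus 0.66, cauda 0.21). Col1a1, a chain of type I collagen, read 11.75, 11.24 and 10.92 in corpus cKO arrays against 10.54, 10.00 and 10.28 in corpus Control arrays, and 11.41, 11.60 and 11.51 in cauda cKO arrays against 11.07, 10.62 and 11.41 in cauda Control arrays. The means differed by 1.03 (corpus) and 0.48 (cauda), and the arrays were well apart in the corpus, while in the cauda cKO 1 and Control 3 were level to the second decimal. The mean level of the list was between 9.13 and 9.89 in corpus cKO arrays and between 8.76 and 9.05 in corpus Control arrays, and between 9.65 and 9.85 in cauda cKO arrays and between 9.44 and 9.60 in cauda Control arrays, which did not overlap either.

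Macrophage genes had 11 of 18 higher and 0 lower, with 16 of 18 of the same sign and a median of 0.58 (corpus 0.96, cauda 0.21). The median was 0.37 without corpus cKO 1, the array with the highest mean level of the list, 9.47, where the other corpus cKO arrays had 8.33 and 7.96 and the corpus Control arrays between 7.47 and 7.95. The mannose receptor Mrc1 had 1.15 (corpus) and 0.27 (cauda), and Csf1r, the receptor of the growth factor of macrophages, 0.74 and 0.23, with an average of 0.48 that was 0.32 without corpus cKO 1. Lymphocyte genes had 5 of 17 higher and 1 lower (median 0.22, and 0.33 without corpus cKO 3), smooth muscle genes 5 of 14 higher and 1 lower, endothelial genes 0 of 13 higher and 1 lower (median 0.18, and 0.09 without corpus cKO 1), and basal cell genes 1 of 9 higher and 0 lower. The part of these cell types in the differences of other genes, the interferon-stimulated and antigen presentation lists included, was not tested.

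Haploid germ cell genes had the lowest median of the 29 lists. Of 58 measured, 43 were lower and 0 higher at an unadjusted p under 0.05, and 49 had the same, lower sign in both regions. Their median was -0.80, made of -0.35 in the corpus, where 2 were lower at an unadjusted p under 0.05, and -1.34 in the cauda, where 45 were lower and 1, Oxct2a, was higher. The mean level of the list was between 5.18 and 5.52 in cauda cKO arrays and between 6.56 and 7.17 in cauda Control arrays, with no overlap. In the corpus it was 6.38, 5.6 and 4.95 in cKO arrays and between 5.52 and 6.28 in Control arrays, so that corpus cKO 1 lay above every corpus Control array. The averaged median was -1.01 without that array.

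Theg, a protein of haploid germ cells, read 6.75, 5.67 and 5.43 in corpus cKO arrays against 6.00, 6.76 and 6.55 in corpus Control arrays, which overlapped. In the cauda it read 5.82, 5.44 and 5.56 in cKO arrays against 6.95, 7.88 and 7.53 in Control arrays, which did not. Its averaged difference was -1.17 (standard error 0.30, adjusted p = 0.587, limma). Akap3, an anchor protein of the sperm tail, had -0.74 and Tssk3, a testis-specific kinase, -0.99. The piRNA pathway genes, active in germ cells, had 6 of 17 lower and 0 higher, with a median of -0.22, and all 17 averaged differences were below 0. Of the 17, 9 had the lower sign in both regions and 8 had opposite signs. Of the same 17, 11 lay below the median of all values. In this list, Pld6 passed in both regions (corpus -0.38, cauda -0.26), and Gtsf1 had -0.13 (corpus) and -1.17 (cauda).

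As an example of a gene lower in both regions, the promoter window of Septin12 (RefSeq, GRCm38.p6, chr16:4997803-4998102, minus strand) is given, with the 1 CCAAT match, read on the opposite strand, in capitals.
Septin12: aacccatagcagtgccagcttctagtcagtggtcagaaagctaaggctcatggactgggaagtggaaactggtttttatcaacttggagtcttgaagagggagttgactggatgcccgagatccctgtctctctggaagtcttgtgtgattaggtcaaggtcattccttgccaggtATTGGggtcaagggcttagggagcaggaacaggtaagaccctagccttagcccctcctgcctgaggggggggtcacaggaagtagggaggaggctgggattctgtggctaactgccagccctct

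Clear and narrow cell genes had 3 of 13 lower and 0 higher, with a median of -0.28 (corpus -0.33, cauda -0.23). Car2 led them. It read 9.57, 9.05 and 10.91 in corpus cKO arrays against 11.001, 11.35 and 11.07 in corpus Control arrays, and 8.74, 8.86 and 8.46 in cauda cKO arrays against 9.69, 9.34 and 9.70 in cauda Control arrays. The genotypes were apart in both regions, although corpus cKO 3 lay just below the Controls. The difference was -1.09 (standard error 0.25, adjusted p = 0.587, limma). The exact permutation p of 0.005, the smallest possible, restates that the genotypes were apart. The V-ATPase subunits Atp6v1g3 and Atp6v1c2 had -0.37 and -0.56, and Atp6v1c2 had -0.35 without corpus cKO 1. In the corpus the mean level of the list was 7.16, 7.04 and 7.96 in cKO arrays and between 7.81 and 7.91 in Control arrays, so that corpus cKO 3 lay above the Controls and cKO 1 and 2 below. The list median was -0.43 without corpus cKO 3.

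Genes secreted in corpus and cauda had 3 of 27 lower and 0 higher, with a median of -0.22 that came from -0.55 (corpus) and 0.03 (cauda). This median was -0.12 without corpus Control 2 and -0.37 without cauda cKO 1. Of the 27, 12 had the lower sign in both regions, 2 the higher sign in both and 13 opposite signs. Defb37, a beta-defensin of the epididymis, had -2.24 (corpus) and -0.45 (cauda), and the protease inhibitor Spint3 -1.54 and -0.29. Their averages of -1.34 and -0.91 thus held unequal parts, with unadjusted p of the region difference of 0.022 and 0.0195 (limma). Secretory genes of the initial segment and caput had 0 of 34 in either direction and a median of 0.01. That median had no stable sign, at 0.33 without cauda cKO 3 and -0.18 without cauda Control 3, the highest and lowest values when 1 array was left out. The mean level of this list was 8.96, 9.02 and 7.14 in cauda cKO arrays and 8.69, 8.49 and 7.32 in cauda Control arrays. For genes secreted in corpus and cauda it was 8.79, 8.91 and 7.91 in cauda cKO arrays and 8.78, 8.67 and 7.89 in cauda Control arrays. Cauda array 3 of each genotype was thus the lowest for both lists, and the cause was not tested. The fatty acid receptor Ffar4 (-1.0) and the elongase Elovl2 (-1.19) were the lower members of the lipid handling list, of which 3 of 28 were higher and 2 lower.

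Fat cell genes had 2 of 11 lower and 0 higher, with a median of -0.46 that was -0.72 without corpus cKO 2. Principal cell genes had 2 of 12 lower and 0 higher, with a median of -0.21 that was -0.098 without corpus cKO 1 and -0.12 without corpus cKO 2. Cholesterol synthesis, respiratory chain and ribosomal protein genes had 0 members past an unadjusted p under 0.05 in either direction, and heat shock and protein folding genes, circadian clock genes and steroid response genes had between 1 and 2 in all. Immediate early genes, switched on within minutes of a stimulus, also had 0 of 21 on the average, with a median of 0.05, but within the regions 7 passed that threshold upward (corpus) and 4 downward (cauda). Their medians were 0.33 (corpus) and -0.12 (cauda), and 16 of 21 had opposite signs. Fos, a subunit of AP-1, had 0.33 and -1.06 in corpus and cauda, and Ier3 0.87 and -0.13. The plot of list medians sets the corpus and cauda values beside the average.

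**Figure D3:**
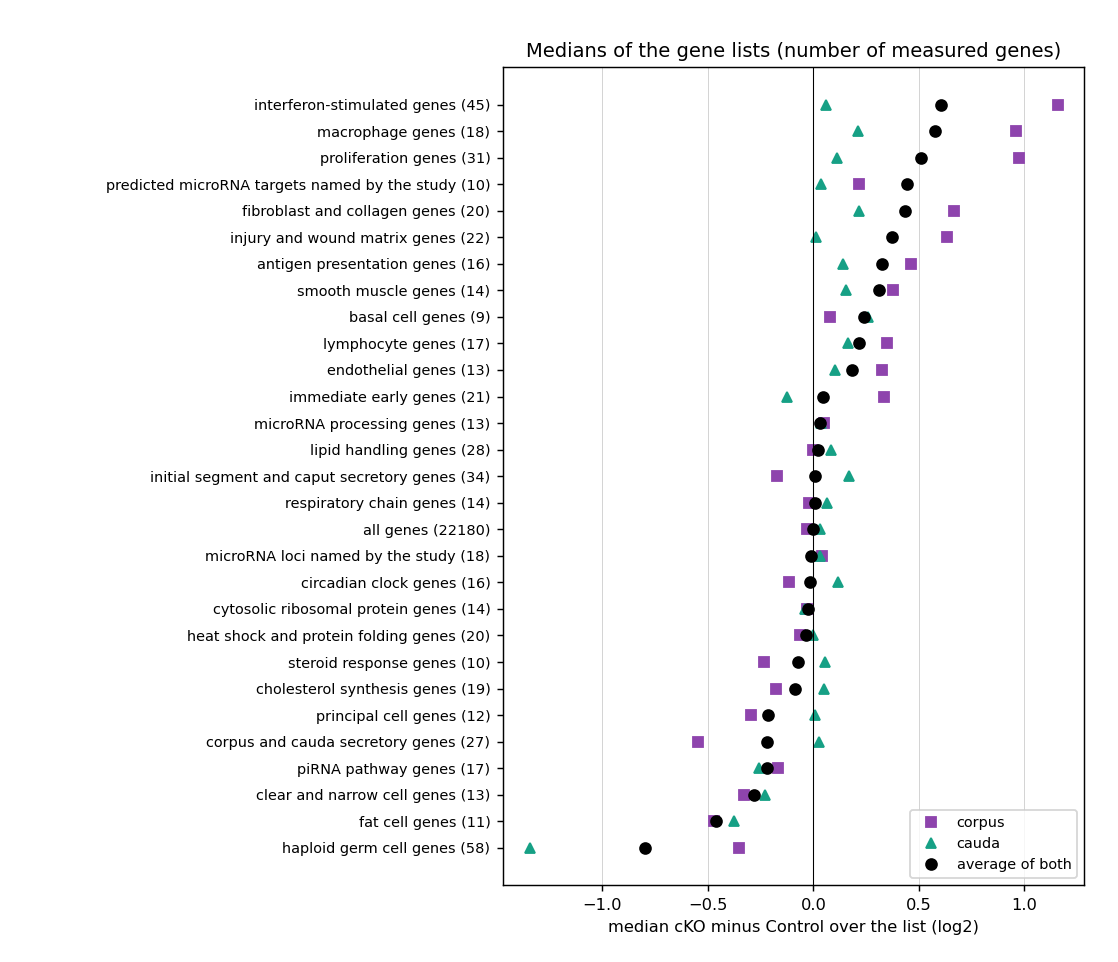
Median difference between cKO and Control (log2) of each gene list with at least 9 measured genes, in the corpus (squares), in the cauda (triangles) and averaged (circles), with the number of measured genes in brackets. Interferon-stimulated genes lie at 1.16 (corpus) and 0.06 (cauda), and haploid germ cell genes at -0.35 and -1.34.

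**Figure D4:**
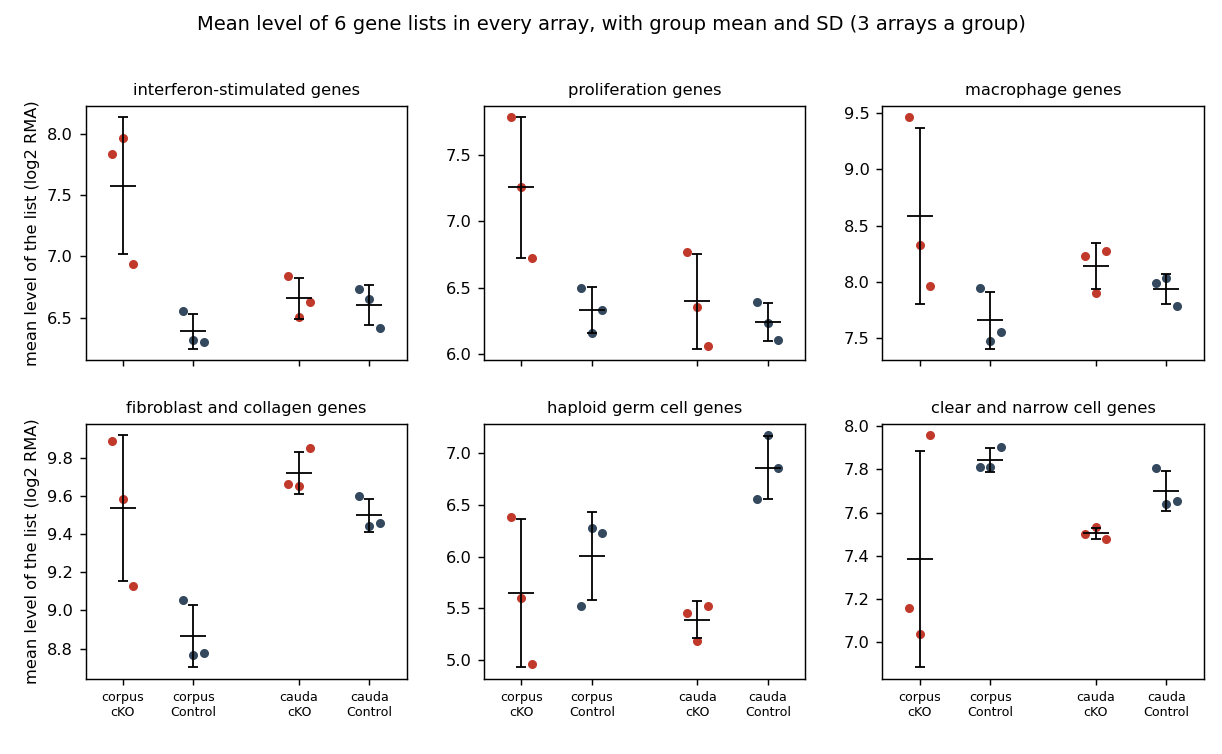
Mean level (log2 RMA) of 6 gene lists in every array, with cKO in red to the left of Control in grey for the corpus and then the cauda, and the mean with its SD over 3 arrays as a black bar. Fibroblast and collagen genes lie higher in cKO without overlap in both regions, and corpus cKO 3 lies nearest to the Controls for the interferon-stimulated, macrophage and clear cell lists.

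Of the genes that the study followed singly, Azgp1, a secreted glycoprotein, had an averaged difference of 1.64 (standard error 0.55, adjusted p = 0.587, limma) made of 3.04 in the cauda and 0.23 in the corpus (unadjusted p of the region difference 0.0042, limma). It read 9.27, 10.20 and 7.31 in cauda cKO arrays against 6.03, 6.01 and 5.6 in cauda Control arrays, and 4.76, 5.62 and 4.79 in corpus cKO arrays against 4.92, 4.95 and 4.61 in corpus Control arrays. The genotypes were apart in the cauda and overlapped in the corpus. Pdcl2 had -0.95, with -0.33 (corpus) and -1.56 (cauda). Pate4 was not analysed here. Of 10 measured genes that the study names as predicted microRNA targets, 5 were higher and 3 lower, and since the study picked them on these samples the count is no independent evidence.

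An average can hide effects of opposite sign, and 4 genes are given for that. Thbs1, thrombospondin 1, read 10.12, 10.10 and 8.59 in corpus cKO arrays against 7.45, 7.39 and 6.47 in corpus Control arrays. In the cauda it read 8.61, 8.32 and 8.78 in cKO arrays against 9.26, 9.36 and 9.4 in Control arrays. The genotypes were apart in both regions in opposite directions, and the differences of 2.5 and -0.77 gave an average of 0.86. Btg2, which restrains the cell cycle, had 0.42 (corpus) and -0.60 (cauda) with an average of -0.09, and was likewise apart in both. Rhbdl1, a rhomboid protease, had -1.41 and 0.19, and Cdc6, which loads the replication helicase, 0.95 and -0.13. The adjusted p of the region difference was 0.373 for each of the 4 (limma), and without corpus cKO 3 it was 0.0179 for Thbs1, 0.0341 for Cdc6, and 0.0373 for Rhbdl1 and Btg2.

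Since the iCre allele lies in Defb41 on chromosome 1 and only cKO mice carry it, genes beside Defb41 were looked at. Of the 50 nearest RefSeq genes on each side, 42 were measured, of which 3 were higher and 5 lower at an unadjusted p under 0.05, with a median of 0.03. Beside Dicer1, which was floxed in both genotypes, 45 were measured, with 2 higher, 3 lower and a median of -0.07. Over all genes 4.33% were higher and 4.29% lower. The nearest one that passed in both regions was Defb44-ps, 2 places from Defb41. It read 2.89, 3.28 and 3.14 in corpus cKO arrays against 4.41, 4.61 and 3.60 in corpus Control arrays, and 3.94, 3.47 and 3.38 in cauda cKO arrays against 4.00, 4.99 and 4.45 in cauda Control arrays. Its genotypes were apart in both regions, with a difference of -0.99, at levels below the median of all values. Chromosome 1 held 2 of the 39 genes higher in both regions and 7 of the 50 lower, with 1229 of 22180 measured genes.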

How the data were processed

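Corpus and cauda RNA was hybridized to Affymetrix Mouse Gene 2.0 ST arrays, although the labelling text attached to the samples describes a microRNA array. The authors made log2 values for each probe-set by RMA (no version given) in Partek Genomics Suite 6.5, and these were used as deposited. Of 41345 probe-sets, 23521 carried 1 gene symbol, 1820 several and 16004 none here, and the brightest of each symbol gave 22180 genes. limma 3.58.1 under R 4.3.3 fitted region and 1 genotype effect to all 12 arrays (9 residual and 3.11 prior degrees of freedom), with two-sided p-values and Benjamini-Hochberg adjustment across the whole array. A fit of the 4 group means gave each region and their difference. Both fits were run on simulated data with independent errors, which cannot show the effect of arrays that share a mouse. The number of arrays limits the precision.

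Gene symbols come from GEO's platform annotation. The members and the gene lists were chosen with earlier results of these data known. The rule for named genes took, in each direction, 12 genes past the adjusted threshold that were apart in both regions and, as 0 genes met it, filled the places by the smallest unadjusted p among genes of the same sign in both regions whose higher mean lay above the median of all values. It added Dicer1, genes the study measured singly, 4 members of each list by p and 4 genes of opposite sign. Of 29 lists, all are counted in the text but that of red blood cell genes, with 1 measured member (Slc4a1, 0.08). The list of microRNA loci was added after seeing the data. Sequences come from RefSeq (GRCm38.p6), where 16990 of 22180 genes had a promoter window.

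Replicate numbers are shared between genotypes and regions. Correlations were taken between deviations of arrays from the mean of their group, and not between levels. Those of same-numbered arrays of a region ran from 0.022 to 0.208 (median 0.077), and those of differently numbered ones from -0.166 to 0.050 (median -0.047). Across the regions of a genotype the median was 0.074 for the same number and -0.022 for other numbers. The deviations of same-numbered arrays were thus slightly more alike at the median. Their correlations were low, and the main fit took no pairs. What arrays of the same number share was not tested. Alternatives were each probe-set's own variance, an average of group means, array weights, 1 probe-set per gene and the upper 60% of probe-sets. Others were quantile normalization, median centring, 3 forms of replicate block (statmod 1.5.0) and leaving out each array. The first is the variance of an ordinary analysis of variance. It does not repeat the comparisons of the study, which displayed changed genes of corpus and cauda separately.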

Additional observations from a re-analysis of the deposited data

Results flagged for a closer look

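The 6 cKO and the 6 Control arrays of 138 genes, 276 groups in all, were searched, after the mean of each region was subtracted, for an array apart from the rest, by its gap to the nearest array divided by the range of the group (against Dixon's critical value for 6 samples). Of these, 18 passed, where about 1 in 20 would by chance. Corpus cKO 1 was the array apart in 7 of the 18, with 0.905 for Mrc1, 0.736 for Dicer1, 0.697 for Emcn, 0.694 for H2-Aa, 0.688 for Cd3g, 0.656 for Theg and 0.629 for C1qc. Corpus cKO 2 was apart for Actg2 (0.662) and Cnn1 (0.644), corpus cKO 3 for AY761185 (0.679), cauda cKO 1 for 4931403G20Rik (0.659), cauda cKO 2 for Krt14 (0.662), and cauda cKO 3 for Ly6d (0.64) and Aqp1 (0.707). Among Control arrays, corpus Control 1 was apart for Akap3 (0.667), corpus Control 2 for Gm4841 (0.682), corpus Control 3 for Per3 (0.742) and cauda Control 2 for Icam1 (0.677).

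Thbs1 and Btg2 were higher in every corpus cKO array than in the corpus Control arrays and lower in every cauda cKO array than in the cauda Control arrays. The corpus difference minus the cauda difference was 3.27 for Thbs1 and 1.02 for Btg2, each with an adjusted p of 0.373 (limma).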

How the results depend on the processing

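No named gene passed the adjusted threshold in the main fit, so none could lose it. The check could show only a turned sign or a gene newly past the threshold. Most genes were also picked by smallest p, which favours a kept sign. It covered 23 alternatives of the averaged fit and, for genes with several probe-sets, the sign of their mean. Of 3083 values of 134 named genes, 3077 kept their direction and side of the threshold. Of the others, 3 were past the threshold (AY761185) and 3 signs turned, all of ribosomal protein genes: leaving out corpus cKO 3 with cauda Control 3, chosen after seeing the data, gave 0.014 for Rpl5 (-0.13 otherwise) and 0.0427 for Rplp0 (-0.08), and the mean of all probe-sets gave -0.0138 for Rpl4 (0.06). Without those 2 arrays 1 probe-set was higher, 57 genes were over 2-fold higher and 59 had opposite directions. Testing 1 probe-set per gene gave 1 higher. Opposite directions numbered 48 with each probe-set's own variance and 18 in the upper 60% of probe-sets, where 958 were lower without adjustment, and array weights left 11 genes over 2-fold higher against 19, and 119 over 2-fold lower against 111. Leaving out 1 array at a time gave 0 to 1 probe-sets higher and 0 to 1 lower, 46 to 172 genes the same way in both regions, 20 to 68 in opposite directions, 7 to 45 over 2-fold higher and 80 to 160 over 2-fold lower. The causes were not tested.

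The replicate number as a block, which the labels do not tie to a mouse, gave 0 higher and 0 lower in its fixed, random and averaged forms. AY761185 then had 1.43 with an adjusted p of 0.240, 0.121 and 0.566 (limma), and the same-way count was 109 with the fixed block. Of 420 list medians, 34 changed sign, each by less than the spread between arrays. The number of arrays limits what can be called, and no depth is defined for intensities.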
